A study of Mus musculus with 6 samples.

Results

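The Wnt pathway genes of mouse thyroid organoids were read from a table of RNA-seq counts, and 57 of its 25239 genes belong to the set. Members were chosen by name, as every Wnt, Fzd, Dkk, Sfrp or Rspo gene with a number, together with the TCF/LEF factors Lef1, Tcf7, Tcf7l1 and Tcf7l2, the co-receptors Lrp5 and Lrp6, the secreted inhibitors Frzb, Wif1 and Notum, the receptor Lgr5, and the feedback genes and targets Axin2, Nkd1, Nkd2, Rnf43, Znrf3 and Sp5. The rule uses names alone, although it was drawn up with earlier results of these data known. The organoids came from clonal mouse embryonic stem cells of the G4 RosaLuc background in which doxycycline turns on Nkx2-1 and Pax8, the transcription factors that direct cells to the thyroid fate, and in which a bovine thyroglobulin promoter drives a BrafV637E protein fused to a tamoxifen-binding domain (ERT2). That promoter ties the transgene to cells that make thyroglobulin, which are not the only cells of an organoid. All 3 groups received the doxycycline pulse and 8-Br-cAMP, were enriched for follicles and were collected on day 31 as pooled wells, with 2 libraries per group. The cAMP group received neither 4OHT nor inhibitors, and per the study's methods the controls for 4OHT were given its ethanol vehicle. The 4OHT group received 1 µM 4-hydroxytamoxifen (4OHT), which activates the Braf fusion, for 5 days. The PD+LY group received 1 µM 4OHT together with 2 kinase inhibitors for 3 days, PD0325901 (250 nM), which blocks MEK, and LY204002 (5 µM), which blocks PI3K. The study's protocol for the inhibitors places some days of 4OHT alone before them, so the total time in 4OHT may differ between these 2 groups, and that difference cannot be told apart from the inhibitors.

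Wnt proteins are secreted, lipid-modified ligands that bind a Frizzled receptor together with Lrp5 or Lrp6. In the canonical branch this stops the destruction of β-catenin, which then enters the nucleus and acts with TCF/LEF factors on target genes. Secreted antagonists of the Dkk and Sfrp families block the ligands or the co-receptors, R-spondins bind Lgr receptors and protect Frizzled from the ubiquitin ligases Rnf43 and Znrf3, and several targets, among them Axin2, Notum and Nkd1, feed back on the pathway. In embryonic stem cell cultures the pathway is known for its part in self-renewal and in the formation of mesoderm and endoderm, and in the thyroid β-catenin mutations occur in poorly differentiated and anaplastic carcinoma.

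The libraries hold 14898409 to 20637959 counts, so that 1 count is worth 0.0486 to 0.0667 CPM, the unit of each library's counts scaled to a common total, and the common biological coefficient of variation over all genes was 0.105. Markers of other cells were measured beside the Wnt genes, since a bulk library cannot tell fewer cells of a type from less RNA per cell. The 13 thyroid follicular genes summed to 1110 to 1660 CPM in cAMP, 576 to 769 CPM in 4OHT and 1000 to 2010 CPM in PD+LY, and 12 of them had at least 3 counts in every library. Nearly all of that sum is Tg, with 1560 and 1020 CPM in cAMP, 514 and 693 CPM in 4OHT, and 1870 and 907 CPM in PD+LY. After 4OHT 2 of the 12 tested were called down and 0 up, where 1.51% and 1.17% of all genes were. The 15 mesenchymal genes summed to 3520 to 3900 CPM in cAMP, 5000 to 5200 CPM in 4OHT and 6550 to 7800 CPM in PD+LY. The 15 epithelial genes went the other way, with 1300 to 1410, 975 to 1100 and 867 to 910 CPM in the same order. The 10 pluripotency genes summed to 3570 to 3730 CPM in cAMP, 4100 to 4290 CPM in 4OHT and 4530 to 4820 CPM in PD+LY, and all 10 had at least 3 counts in every library. The 10 mesendoderm and primitive streak genes summed to 54.4 to 77.0, 39.8 to 43.8 and 38.6 to 39.7 CPM, and the 14 endothelial genes to 300 to 304 CPM, 311 to 316 CPM and 261 to 269 CPM. A sum follows its most abundant genes, and the near-flat endothelial sum hides falls of single genes, counted below with the other lists. The 12 neural progenitor genes summed to 249 to 264, 161 to 163 and 216 to 218 CPM. No marker gene of these lists was at 0 in all 6 libraries. These levels moved with the groups, and their part in the Wnt results below was not tested.

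After 4OHT the members of the set that passed both thresholds were all lower, and Lef1, a transcription factor that partners β-catenin, had the smallest adjusted p of them. Of the 57 members, 50 had enough counts to be tested. A gene was called when its adjusted p in edgeR's quasi-likelihood test was under 0.05 and its change was at least 2-fold. In 4OHT versus cAMP no member was called up and 5 were called down (Wnt3, Wnt8a, Rspo3, Fzd2 and Lef1), or 10% of those tested, against 2.67% of all 15256 genes, of which 1.17% were called up and 1.51% down. A further 5 members (Wnt7b up and Fzd3, Fzd7, Sfrp2 and Tcf7 down) had an adjusted p under 0.05 with a smaller change, where 8.39% of all genes had such a p with or without the fold. DESeq2 also called 0 members up and 4 down, and at an unadjusted p under 0.05 in edgeR 4 members were higher and 18 lower. The member median was -0.27 on the log2 scale against 0.0 for all genes, with 34 of 50 members below 0. Both 4OHT libraries were below both cAMP libraries for 28 members and above both for 11. The groups failed to overlap for 58.5% of all genes, with 29.4% lower and 29.1% higher.

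The inhibitors went with changes in both directions. In PD+LY versus 4OHT 6 members were called up (Wnt3, Rspo3, Fzd6, Fzd8, Fzd10 and Notum) and 3 down (Wnt3a, Rspo4 and Frzb), which is 18.0% of members against 7.26% of all genes (2.35% up and 4.90% down). Another 7 passed the adjusted p alone, as did 22.7% of all genes with or without the fold. The PD+LY libraries were both higher for 18 members and both lower for 17, and 62.3% of all genes had no overlap. The member median was -0.05 on the log2 scale against 0.01 for all genes. In PD+LY versus cAMP 3 were called up (Wnt16, Rspo2 and Fzd10) and 11 down (Wnt1, Wnt3a, Wnt8a, Rspo1, Fzd7, Dkk1, Frzb, Wif1, Lef1, Tcf7 and Rnf43), 28.0% of members against 9.24% of all genes (3.00% up and 6.24% down). The adjusted p alone was passed by 7 more, and by 25.7% of all genes with or without the fold. Both PD+LY libraries were higher for 15 members and lower for 24, against 30.2% and 31.2% of all genes, which together make the 61.4% without overlap. The member median here was -0.23 against 0.0. Each pair of comparisons shares 2 libraries, so the 3 comparisons are not independent of one another. Over all comparisons 21 members passed both thresholds at least once, 30 had an adjusted p under 0.05 at least once and 20 tested members never did.

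**Figure D1:**
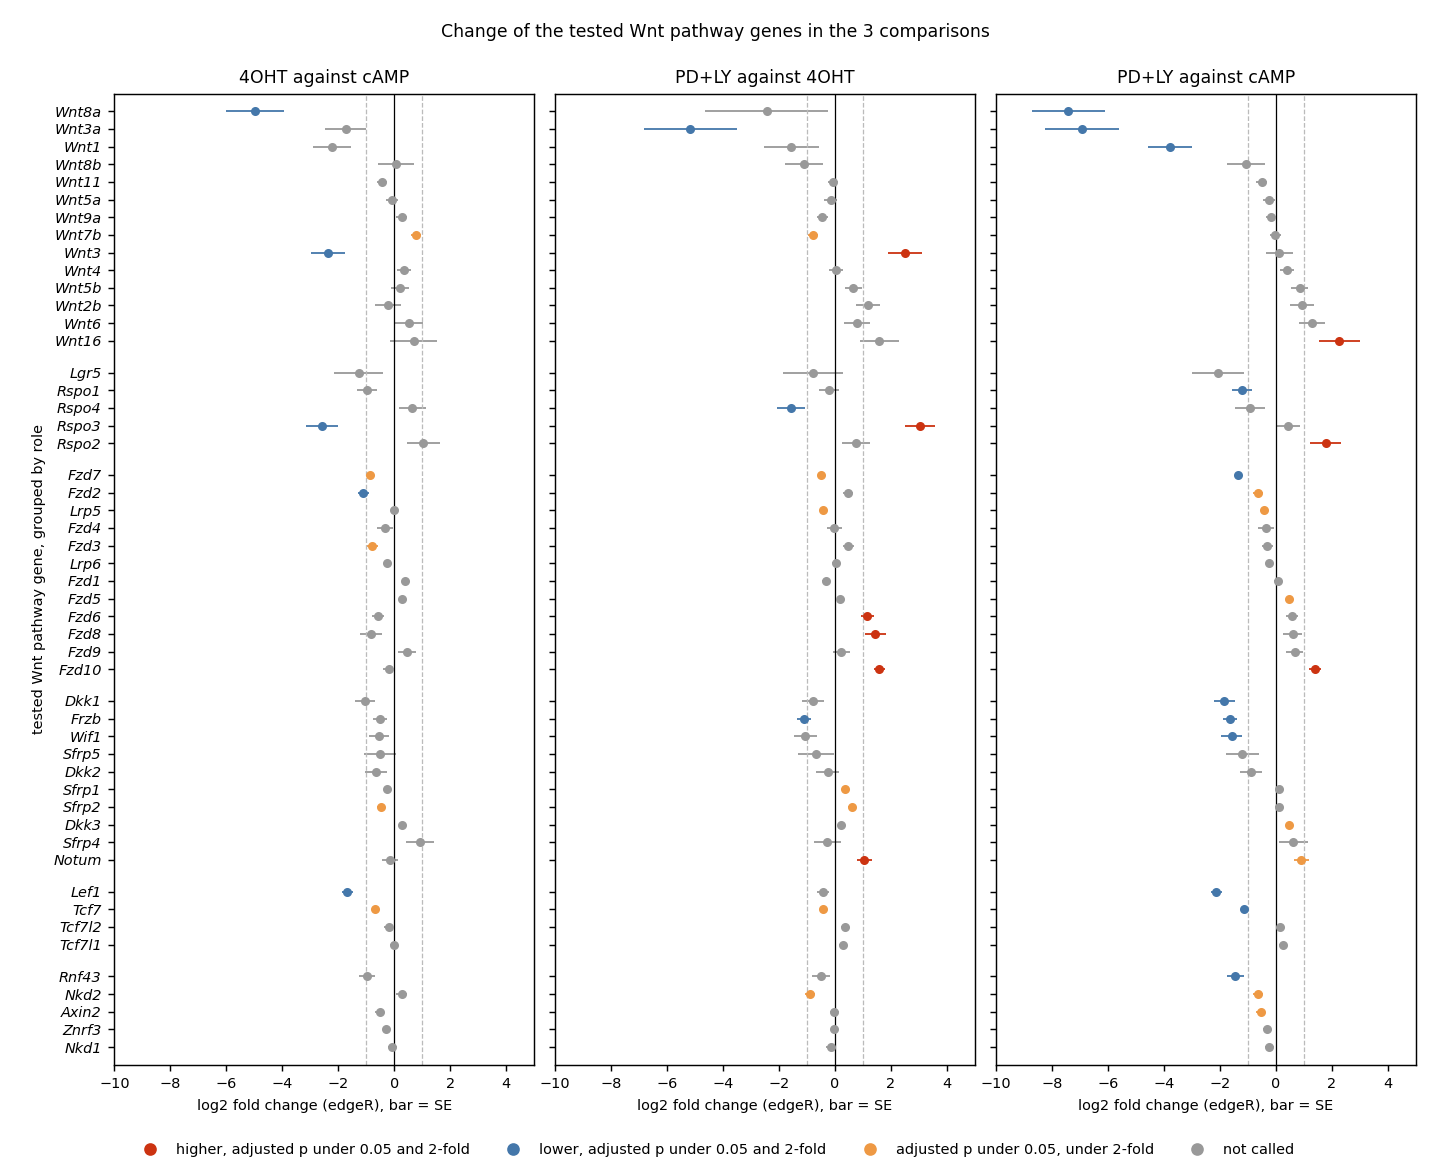
Log2 fold changes of the tested Wnt pathway genes in the 3 comparisons, grouped by role, with bars of 1 SE from the edgeR fit. Red (higher) and blue (lower) points passed both thresholds: 5 in 4OHT versus cAMP, all lower, 9 in PD+LY versus 4OHT and 14 in PD+LY versus cAMP. Orange points passed the adjusted p with a change under 2-fold, and dashed lines mark 2-fold. The values of Wnt3a and Wnt8a, which had no counts in PD+LY, depend on the prior count and are not estimates of size.

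Levels could be compared between genes only per kilobase of exon. On that scale the 4 highest members over the 6 libraries were Tcf7 at 45.6 CPM per kilobase, Tcf7l1 at 30.9, Dkk3 at 27.9 and Fzd7 at 26.4. The highest ligand, Wnt7b, stood at 2.78 CPM per kilobase, the highest R-spondin, Rspo1, at 1.18, and the highest of the feedback genes, Axin2, at 3.28. The top receptor and the top nuclear factor thus stood above the top ligand, though Fzd3, Fzd4, Fzd6, Fzd8, Fzd9, Lef1 and Tcf7l2 lay below Wnt7b. The 7 members below the count filter were Wnt2, Wnt7a, Wnt9b, Wnt10a, Wnt10b, Sp5 and the antagonist Dkk4, which had 0 counts in all 6 libraries.

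**Figure D2:**
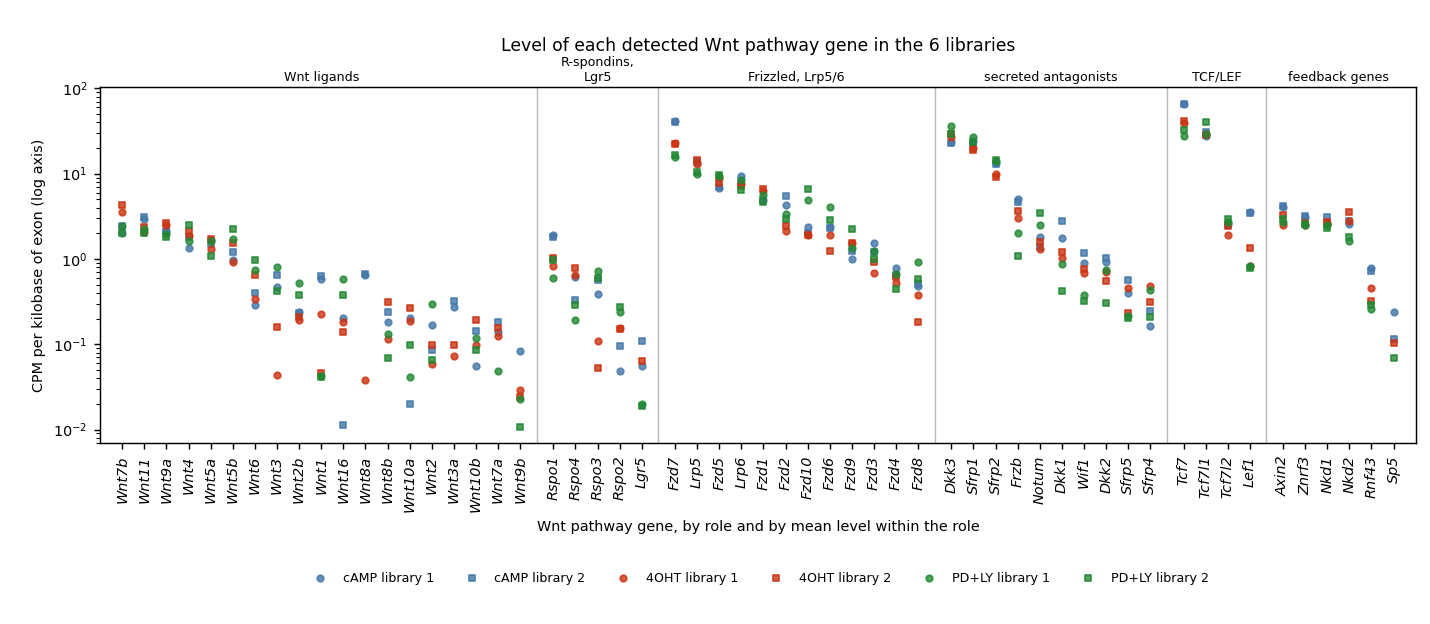
Level of each detected Wnt pathway gene in each library, as CPM per kilobase of exon on a log axis, by role and by mean level within the role. Circles are library 1 and squares library 2 of a group; values of 0 cannot be drawn on the log axis. Fzd7, Tcf7 and Lef1 have both cAMP libraries above the other 4.

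The summed level of the ligand genes was 60.1 to 64.2 CPM in cAMP, 59.9 to 72.9 CPM in 4OHT and 57.0 to 62.5 CPM in PD+LY, and these ranges overlap. That sum follows the abundant ligands and cannot show whether the scarce ones changed together. Both 4OHT libraries were below both cAMP libraries for 6 of the 14 tested ligands and above both for 3, against 29.4% and 29.1% of all genes. Of 14 tested ligands, 2 were called down in 4OHT versus cAMP, 1 was called up and 1 down in PD+LY versus 4OHT, and 1 was called up and 3 down in PD+LY versus cAMP. These are 14.3%, 14.3% and 28.6% of them, against 2.67%, 7.26% and 9.24% of all genes. The ligands called down had fewer than 50 counts in every library.

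Wnt3, a canonical ligand needed for the primitive streak (chr11:103774150-103817957 of GRCm38), had 23 and 41 counts in cAMP, 2 and 9 in 4OHT, and 49 and 27 in PD+LY. It was lowest in both 4OHT libraries, while cAMP and PD+LY overlapped. Its log2 change was -2.38 ± 0.61 (SE, adjusted p = 0.0342) in 4OHT versus cAMP and 2.51 ± 0.61 (adjusted p = 0.0116) in PD+LY versus 4OHT. Both calls depend on single libraries. The fall lost its call without cAMP library 1 (adjusted p = 0.0582), cAMP library 2 (0.141), 4OHT library 1 (0.246) or 4OHT library 2 (0.0722), and the rise lost it without 4OHT library 1 (0.0908) or PD+LY library 1 (0.071).

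Wnt8a, another canonical ligand of the early embryo, was close to confined to the cAMP libraries, with 18 and 24 counts there, 1 and 0 in 4OHT, and 0 and 0 in PD+LY. The ratio of 4OHT to cAMP counts was 0.0261 with an exact interval of 0.000646 to 0.154, and the level in PD+LY was at least 7.71-fold lower than in cAMP, taking 3 counts per library as the floor. Such intervals and floors cover counting error only. The adjusted p was 0.0147 in 4OHT versus cAMP and 0.00196 in PD+LY versus cAMP. The call in 4OHT versus cAMP was lost when any 1 cAMP or 4OHT library was left out.

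Wnt3a, which maintains stem cell self-renewal in culture (chr11:59248033-59290752), followed a similar order, with 12 and 18 counts in cAMP, 3 and 5 in 4OHT, and 0 and 0 in PD+LY. The groups did not overlap in any comparison. It was at least 5.46-fold lower in PD+LY than in cAMP (adjusted p = 0.00328) and at least 1.59-fold lower than in 4OHT (adjusted p = 0.0454). The latter call was lost without any single one of the 6 libraries, with adjusted p of 0.0809 and 0.0841 without cAMP libraries 1 and 2, 0.111 and 0.199 without 4OHT libraries 1 and 2, and 0.131 and 0.118 without PD+LY libraries 1 and 2, and also without the count filter (0.0632). In 4OHT versus cAMP the adjusted p was 0.167.

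Wnt1, a ligand of the midbrain and neural crest (chr15:98789857-98793837), had 22 and 31 counts in cAMP, 8 and 2 in 4OHT, and 2 in each PD+LY library. Both of the other groups were below cAMP. It fell by 3.78 on the log2 scale in PD+LY versus cAMP (SE 0.77, adjusted p = 0.00408), whereas 4OHT versus cAMP gave -2.22 ± 0.67 with an adjusted p of 0.0633. Wnt16 (chr6:22288227-22298522) was the ligand called up in PD+LY versus cAMP, with 50 and 34 counts against 14 and 1 and a log2 change of 2.27 ± 0.73 (adjusted p = 0.0393). The cAMP libraries differ widely for this gene, and 4OHT held 12 and 11 counts. Its call was lost without cAMP library 2 (log2 change 1.26, adjusted p = 0.193), PD+LY library 1 (1.92, adjusted p = 0.135), 4OHT library 1 (0.0571) or 4OHT library 2 (0.0534), and with only the 2 groups compared in the fit (0.058), and without cAMP library 1 the change was 5.25.

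Wnt7b, the most abundant ligand and one known from lung and kidney epithelium (chr15:85535437-85582473), moved in the direction opposite to Wnt3. It had 9.87 and 12 CPM in cAMP, 17.3 and 20.8 CPM in 4OHT, and 12 and 9.87 CPM in PD+LY. The change was under 2-fold but passed the adjusted p both ways, at 0.79 ± 0.18 (adjusted p = 0.0202) in 4OHT versus cAMP and -0.80 ± 0.18 (adjusted p = 0.00811) in PD+LY versus 4OHT. Wnt7b was the single member with an adjusted p under 0.05 and a rise after 4OHT. The more abundant noncanonical ligands passed no threshold: Wnt5a held 8.56 to 13.4 CPM over the 6 libraries and Wnt11, 8.31 to 13 CPM. Wnt2b, Wnt5b and Wnt6 had both PD+LY libraries above all others, with adjusted p of 0.124, 0.0556 and 0.0636 against cAMP. Wnt4 (adjusted p from 0.278 to 0.938), Wnt8b (0.26 to 0.969) and Wnt9a (0.114 to 0.546) passed in no comparison either.

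Several ligand genes lie next to each other. Wnt1 and Wnt10b are 11706 bases apart on chromosome 15, Wnt3 and Wnt9b are 24328 and Wnt3a and Wnt9a 16175 bases apart on chromosome 11, and Wnt6 and Wnt10a are 6193 bases apart on chromosome 1. Wnt9a, beside Wnt3a, was the single tested neighbour of a ligand called down and had 6.03 to 8.77 CPM throughout. Wnt10b had 3 to 12 counts and Wnt9b 0 to 6 counts per library, too few to be tested. Wnt10a held 1 to 12 counts, Wnt2 2 to 13 and Wnt7a 0 to 12, with the lowest Wnt7a values (3 and 0) in PD+LY.

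The R-spondins, which raise Frizzled levels at the cell surface, each passed both thresholds in at least 1 comparison. Rspo3 (chr10:29452416-29535867) had 1.19 and 1.75 CPM in cAMP, 0.333 and 0.164 CPM in 4OHT, and 2.24 and 1.85 CPM in PD+LY. Both 4OHT libraries were below all others and both PD+LY libraries above all others. The fall after 4OHT was 6-fold (log2 change -2.59 ± 0.57, adjusted p = 0.0172) and the rise in PD+LY versus 4OHT was 8.23-fold (3.04 ± 0.55, adjusted p = 0.00246). PD+LY versus cAMP gave 0.45 ± 0.42 (adjusted p = 0.459). The rise held in every alternative run that tested the gene. The filter of 10 counts in each library did not, since 4OHT had 5 and 3 counts. The call of the fall was lost without cAMP library 2 (log2 change -2.26), 4OHT library 1 (-3.12) or 4OHT library 2 (-2.13).

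The other R-spondins followed different patterns. Rspo1 (chr4:124986430-125009099) had 3.65 and 3.46 CPM in cAMP, 1.60 and 1.97 in 4OHT, and 1.17 and 1.90 in PD+LY, a fall of 1.20 on the log2 scale in PD+LY versus cAMP (SE 0.35, adjusted p = 0.0241) that was lost without cAMP library 1 (0.091), cAMP library 2 (0.0839) or PD+LY library 1 (0.103). Rspo2 (chr15:43020794-43170826) rose from 4 and 10 counts in cAMP to 24 and 29 in PD+LY, with 12 and 14 in 4OHT (log2 change against cAMP 1.78 ± 0.54, adjusted p = 0.0317), but DESeq2 gave 0.0862, and leaving out each library in turn gave 0.207 and 0.0751 for cAMP libraries 1 and 2, 0.057 and 0.0562 for 4OHT libraries 1 and 2, and 0.0648 and 0.113 for PD+LY libraries 1 and 2. Rspo4 (chr2:151842927-151874668) was lower in PD+LY, with 9 and 14 counts, than in 4OHT, with 23 and 34 (log2 change -1.57 ± 0.51, adjusted p = 0.0457). Its cAMP libraries had 23 and 16 counts. That call was lost in DESeq2 (0.088) and without cAMP library 1 (0.0535), 4OHT library 1 (0.117), 4OHT library 2 (0.24), PD+LY library 1 (0.163) or PD+LY library 2 (0.063). The R-spondin receptor Lgr5, a stem cell marker of the gut, had 9 and 23 counts in cAMP, 0 and 12 in 4OHT and 4 in each PD+LY library, with adjusted p of 0.415, 0.626 and 0.126 in the 3 comparisons.

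The Frizzled receptors and their co-receptors, all 12 of them tested, summed to 559 to 580 CPM in cAMP, 462 to 464 CPM in 4OHT and 421 to 449 CPM in PD+LY. The co-receptors Lrp5 and Lrp6 and the receptor Fzd7 make up most of that sum. Fzd7 is well known from stem cells and was the most abundant Frizzled per kilobase (chr1:59482424-59486955). Fzd7 had 186 and 182 CPM in cAMP, 104 and 99.7 CPM in 4OHT, and 71.6 and 74.1 CPM in PD+LY. The 3 groups did not overlap, and the level stepped down with each treatment. Its log2 change was -0.85 ± 0.09 (adjusted p = 0.00025) after 4OHT, -0.49 ± 0.09 (adjusted p = 0.00312) in PD+LY versus 4OHT, and -1.34 ± 0.09 (adjusted p = 1.98e-06) in PD+LY versus cAMP. The last was called and was kept in every alternative.

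Fzd10 moved in the opposite direction under the inhibitors and kept both calls in every alternative. It had 7.61 and 6.53 CPM in cAMP, 6.27 and 6.20 CPM in 4OHT, and 15.8 and 21.4 CPM in PD+LY (chr5:128600844-128604093). The rise was 2.99-fold over 4OHT (log2 change 1.58 ± 0.20, adjusted p = 0.000283) and 2.64-fold over cAMP (1.40 ± 0.20, adjusted p = 0.000333). The neighbouring antisense gene Fzd10os, whose annotated exons do not overlap those of Fzd10, had 17 and 36 counts in cAMP, 37 and 54 in 4OHT, and 111 and 124 in PD+LY. Counting ignored strand, so the reads of a gene and of an overlapping antisense gene cannot be told apart. Among the members, exons of Wnt5a, Wnt7b, Wnt11, Rspo3, Fzd5, Fzd6, Notum, Sfrp2, Lef1, Tcf7l1 and Axin2 overlap an annotated gene on the opposite strand, of which AU022754 (Wnt7b) had 0 to 3 counts and Gm15401 (Tcf7l1) 1 to 9 counts per library. The genes that overlap the other members named, among them Lef1, Rspo3, Fzd6 and Notum, are not among the counted genes. Their share of the reads could not be assessed.

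Fzd2 and Fzd3 were the other receptors with an adjusted p under 0.05 after 4OHT. Fzd2 (chr11:102604396-102608058) had 15.7 and 20 CPM in cAMP, 7.87 and 8.83 CPM in 4OHT, and 12.3 and 10.7 CPM in PD+LY. Its fall of 1.10 on the log2 scale after 4OHT (SE 0.18, adjusted p = 0.00457) lost its call without cAMP library 2, where the change was -0.90 (adjusted p = 0.0427), or 4OHT library 1 (adjusted p = 0.0755). In PD+LY versus cAMP it was -0.64 ± 0.18 (adjusted p = 0.021). Fzd3, a receptor of planar polarity and axon guidance, went from 19.9 and 15.4 CPM in cAMP to 8.74 and 11.7 CPM in 4OHT (-0.78 ± 0.20, adjusted p = 0.0353), with 15.8 and 12.8 CPM in PD+LY.

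Fzd6 and Fzd8 were called up in PD+LY versus 4OHT. Fzd6 (chr15:39006034-39038188) had 11.4 and 11 CPM in cAMP, 9.07 and 6.03 CPM in 4OHT, and 19.6 and 13.9 CPM in PD+LY (1.16 ± 0.23, adjusted p = 0.00391). Fzd8 had 2.89 and 3.02, 2.27 and 1.10, and 5.50 and 3.50 CPM in the same order (1.44 ± 0.37, adjusted p = 0.0169). In both genes the PD+LY libraries lay above the other 4, yet neither call held throughout. Fzd6 fell under 2-fold at 0.89 without 4OHT library 2 (adjusted p = 0.0658) or PD+LY library 1 (adjusted p = 0.0168), and Fzd8 gave adjusted p of 0.176 and 0.0948 without the same libraries.

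The remaining receptors changed little. Fzd5, a receptor of endodermal epithelia, rose by under 2-fold in PD+LY versus cAMP, from 46.6 and 48.8 CPM to 64.7 and 67.1 CPM (0.47 ± 0.11, adjusted p = 0.00927). The co-receptor Lrp5 had 134 and 133 CPM in cAMP, 126 and 141 CPM in 4OHT, and 96.7 and 102 CPM in PD+LY. Its fall under the inhibitors was under 2-fold, at -0.43 ± 0.10 (adjusted p = 0.00829) against 4OHT and -0.42 ± 0.10 (adjusted p = 0.00718) against cAMP. Lrp6, with 87.4 to 128 CPM over the 6 libraries, passed in no comparison (lowest adjusted p = 0.209), nor did Fzd1 (19.7 to 27.9 CPM), Fzd4 (2.97 to 5.22 CPM) or Fzd9 (2.26 to 5.10 CPM).

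Of 10 secreted antagonists tested, 3 (Frzb, Dkk1 and Wif1) were called down in PD+LY versus cAMP, where 6.24% of all genes were. Frzb, a decoy with a Frizzled-like domain (chr2:80411970-80447625), had 16.1 and 14.9 CPM in cAMP, 9.80 and 11.8 CPM in 4OHT, and 6.52 and 3.55 CPM in PD+LY. The groups stepped down without overlap, by 1.62 on the log2 scale in PD+LY versus cAMP (SE 0.25, adjusted p = 0.000633) and by 1.11 in PD+LY versus 4OHT (SE 0.25, adjusted p = 0.0088). The latter call was lost without 4OHT library 2 (-0.96, adjusted p = 0.0954) or PD+LY library 2 (-0.73, adjusted p = 0.0242). Dkk1, which binds Lrp5 and Lrp6 (chr19:30545863-30549665), had 4.27 and 6.77 CPM in cAMP, 2.47 and 2.91 CPM in 4OHT, and 2.09 and 1.02 CPM in PD+LY. It fell by 1.84 in PD+LY versus cAMP (SE 0.37, adjusted p = 0.00351), with values of -2.44 and -1.41 without PD+LY libraries 1 and 2.

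Wif1, which binds Wnt ligands directly (chr10:121033960-121100650), had 2.20 and 2.87 CPM in cAMP, 1.67 and 1.86 CPM in 4OHT, and 0.916 and 0.778 CPM in PD+LY. It was 3.00-fold lower in PD+LY than in cAMP (log2 change -1.58 ± 0.39, adjusted p = 0.0104), a call lost without cAMP library 2 (-1.36, adjusted p = 0.0995). Notum, an enzyme that strips the lipid from Wnt proteins and is itself a target of the pathway (chr11:120653788-120661175), went the other way, with 4.40 and 3.31, 3.13 and 3.78, and 6.06 and 8.31 CPM. Both PD+LY libraries stood above the other 4. The change was 1.05 ± 0.27 over 4OHT (adjusted p = 0.015) and 0.91 ± 0.26 over cAMP (adjusted p = 0.0243). The call over 4OHT was lost without 4OHT library 1 (adjusted p = 0.111), 4OHT library 2 (0.0686) or PD+LY library 2 (0.069).

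The abundant antagonists were Dkk3, Sfrp1 and Sfrp2. Dkk3, a divergent Dkk protein, had 78.5 and 76.7 CPM in cAMP, 89.7 and 97.9 CPM in 4OHT, and 120 and 98.9 CPM in PD+LY, with a change of 0.49 ± 0.11 in PD+LY versus cAMP (adjusted p = 0.007). Sfrp2, a fibroblast product in many tissues, fell after 4OHT and rose with the inhibitors by less than 2-fold: 29 and 28 CPM in cAMP, 21.3 and 19.6 CPM in 4OHT, and 30.3 and 31.3 CPM in PD+LY. Its adjusted p was 0.0395 in 4OHT versus cAMP (-0.48 ± 0.13) and 0.00652 in PD+LY versus 4OHT (0.59 ± 0.13). Sfrp1 was lowest in the 4OHT libraries too, at 87.8 and 83.7 CPM against 105 and 101 CPM in cAMP and 117 and 103 CPM in PD+LY, and passed in PD+LY versus 4OHT (0.36 ± 0.10, adjusted p = 0.0218). Dkk2, Sfrp4 and Sfrp5 passed in no comparison, with lowest adjusted p of 0.114, 0.303 and 0.162.

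Lef1 and Tcf7 fell, and Tcf7l1 and Tcf7l2 passed in no comparison. Lef1, the TCF/LEF factor that is itself raised by Wnt signals in many tissues (chr3:131110471-131224356), had 31.3 and 30.1 CPM in cAMP, 7.27 and 11.7 CPM in 4OHT, and 7.18 and 6.85 CPM in PD+LY. The cAMP libraries lay well above the other 4, and both PD+LY libraries were below both 4OHT libraries. The fall was 3.21-fold after 4OHT (log2 change -1.68 ± 0.20, adjusted p = 0.000512) and 4.37-fold in PD+LY versus cAMP (-2.13 ± 0.20, adjusted p = 2.35e-05). PD+LY versus 4OHT gave -0.44 ± 0.21 (adjusted p = 0.15), so no return toward the cAMP level was measured with the inhibitors. Lef1 was the single member whose call in 4OHT versus cAMP was kept in every alternative, with log2 changes from -2.07 to -1.39 when 1 library was left out.

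Tcf7, which encodes TCF1 and was the most abundant member per kilobase (chr11:52252371-52283014), had 173 and 174 CPM in cAMP, 104 and 110 CPM in 4OHT, and 71.8 and 85.9 CPM in PD+LY. The groups did not overlap. Its changes were -0.69 ± 0.10 (adjusted p = 0.00234), -0.44 ± 0.11 (adjusted p = 0.0112) and -1.13 ± 0.11 (adjusted p = 1.97e-05) in the 3 comparisons, of which the last was called. Tcf7l1, the repressor TCF3 of stem cells, held 109 to 160 CPM over the 6 libraries and Tcf7l2 held 16.9 to 25.9 CPM, with lowest adjusted p of 0.181 and 0.106. The 4 factors together summed to 336 to 346 CPM in cAMP, 243 to 254 CPM in 4OHT and 215 to 278 CPM in PD+LY.

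**Figure D3:**
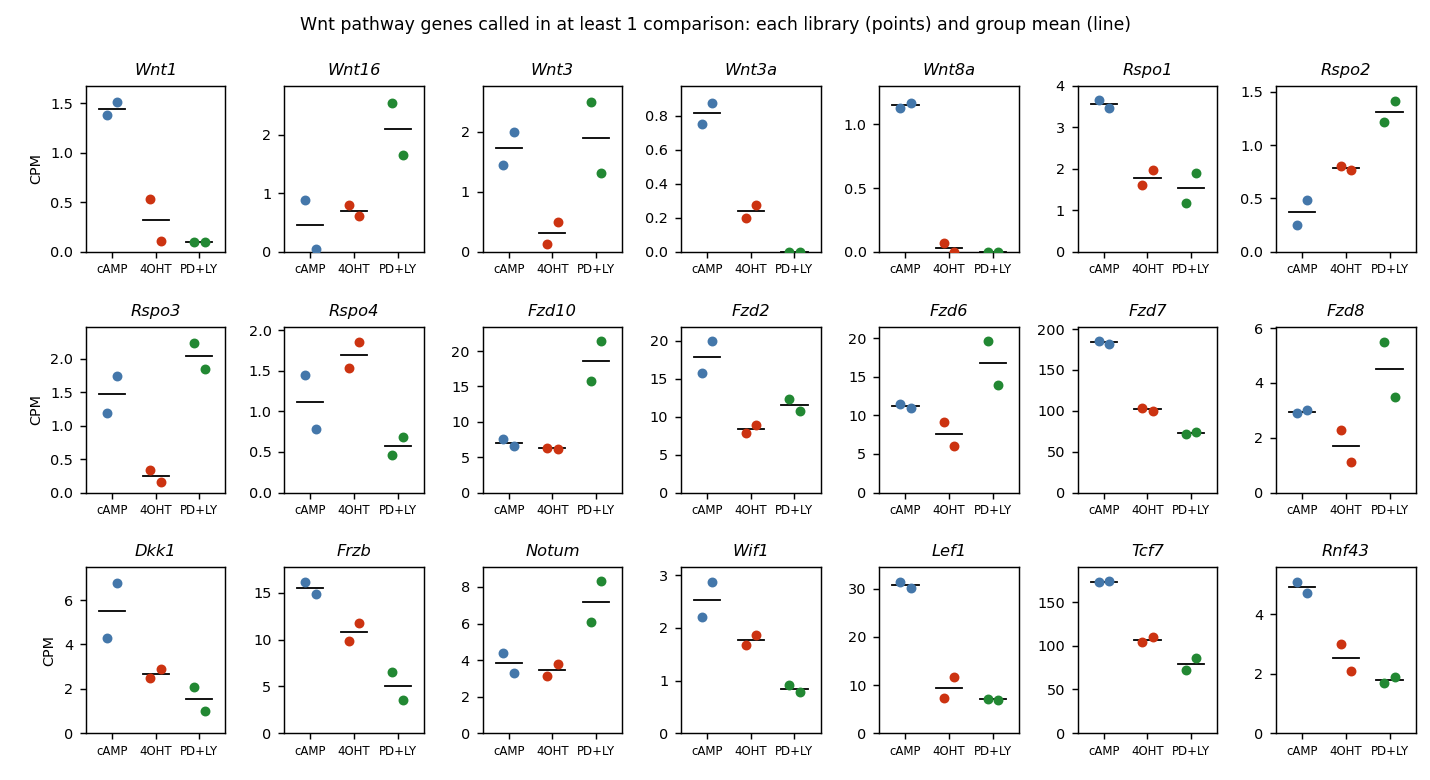
CPM in each of the 6 libraries (points) with the group mean (line) for the 21 Wnt pathway genes that passed both thresholds in at least 1 comparison, each panel on its own axis from 0. Lef1 is high in cAMP and low in the other groups, Rspo3 and Wnt3 are low in 4OHT alone, and Fzd10 is high in PD+LY alone.

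The promoter sequences were searched for CTTTGA, the core letters of the TCF/LEF motif, on both strands, in RefSeq windows of GRCm38.p6 running from 250 bases before to 50 bases after a start. Windows were found for 38 members, and 7 of them (18.4%) held a match, against 4911 of 27025 genes (18.2%). Members called down in PD+LY versus cAMP held a match in 3 of 10 genes with a window. The letters were therefore about as frequent among members as among all genes, and a match is not evidence of binding. The 250 bases before 3 starts are given, with the matches in capitals: an internal start of Lef1, the member called with the smallest adjusted p after 4OHT, chosen because it holds matches while the windows of the 3 other Lef1 starts hold 0 (chr3:131156044-131156293, plus strand, 2 matches on the opposite strand, 180 and 120 bases before the start); Sp5, a zinc-finger target with few counts here (chr2:70474673-70474922, plus strand, 2 matches 204 and 104 bases before the start); and Axin2, the usual reporter of β-catenin activity, as a window with 0 matches (chr11:108920099-108920348, plus strand).
Lef1: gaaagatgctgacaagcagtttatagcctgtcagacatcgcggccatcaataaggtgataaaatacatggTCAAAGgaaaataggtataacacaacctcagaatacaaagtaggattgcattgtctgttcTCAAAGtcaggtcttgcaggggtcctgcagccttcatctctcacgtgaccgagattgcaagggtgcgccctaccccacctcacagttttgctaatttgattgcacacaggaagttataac
Sp5: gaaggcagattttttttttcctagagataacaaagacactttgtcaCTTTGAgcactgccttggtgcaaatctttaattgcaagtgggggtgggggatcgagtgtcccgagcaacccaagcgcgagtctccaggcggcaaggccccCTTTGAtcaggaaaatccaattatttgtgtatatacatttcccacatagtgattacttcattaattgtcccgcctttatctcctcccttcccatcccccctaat
Axin2: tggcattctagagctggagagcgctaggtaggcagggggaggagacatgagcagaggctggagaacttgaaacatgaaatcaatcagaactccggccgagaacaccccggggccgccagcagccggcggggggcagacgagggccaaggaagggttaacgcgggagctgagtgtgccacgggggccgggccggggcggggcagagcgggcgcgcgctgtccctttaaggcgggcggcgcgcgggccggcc
Read counts per gene do not separate the starts of Lef1.

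The feedback genes and targets inside the cell or in its membrane summed to 76.1 to 80.6 CPM in cAMP, 62.2 to 70.5 CPM in 4OHT and 55.4 to 57.7 CPM in PD+LY, and 1 of the 5 tested was called, in PD+LY versus cAMP. Rnf43, the ligase that removes Frizzled from the membrane (chr11:87662722-87735539), had 5.09 and 4.72 CPM in cAMP, 3.00 and 2.08 CPM in 4OHT, and 1.68 and 1.90 CPM in PD+LY. It was called down in PD+LY versus cAMP (-1.45 ± 0.30, adjusted p = 0.0042), a call kept in every alternative, while 4OHT versus cAMP gave -0.96 ± 0.29 with an adjusted p of 0.0683.

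Axin2, the scaffold of the β-catenin destruction complex (chr11:108920349-108950783), had 22.2 and 23.2 CPM in cAMP, 13.7 and 17.9 CPM in 4OHT, and 15.1 and 16.2 CPM in PD+LY. The cAMP libraries were above all others. The change was -0.52 ± 0.16 after 4OHT, which did not pass (adjusted p = 0.0678), and -0.54 ± 0.16 in PD+LY versus cAMP, which passed under 2-fold (adjusted p = 0.0269). Nkd2, an inhibitor of Dishevelled, was higher in 4OHT than in PD+LY, with 13.6 and 17.3 CPM against 7.84 and 8.75 CPM (-0.90 ± 0.18, adjusted p = 0.00444), and its cAMP libraries had 12.4 and 13.4 CPM (PD+LY versus cAMP -0.64 ± 0.18, adjusted p = 0.0226). Its relative Nkd1 held 10.6 to 14.0 CPM (lowest adjusted p = 0.345). Znrf3, the partner of Rnf43, had 24.2 and 25 CPM in cAMP and 19.6 to 20.6 CPM in the other 4 libraries, with a lowest adjusted p of 0.0992. Sp5 had 8 and 5 counts in cAMP, 0 and 4 in 4OHT, and 0 and 3 in PD+LY, too few to be tested.

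**Figure D4:**
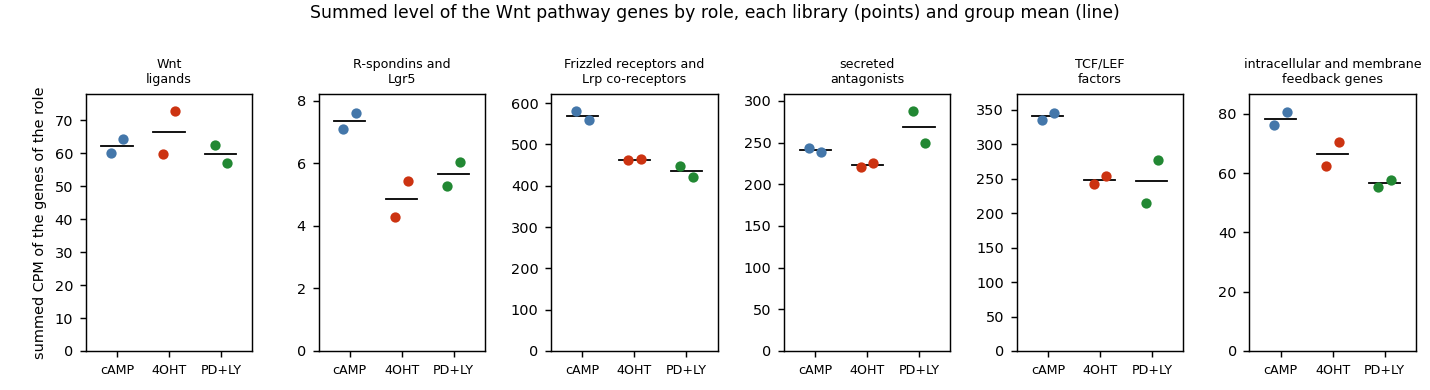
Summed CPM of the Wnt pathway genes of each role in each library (points) with the group mean (line), each panel on its own axis from 0. The sums of R-spondins with Lgr5, of receptors, of TCF/LEF factors and of feedback genes are highest in both cAMP libraries. The sum of the secreted antagonists is highest in both PD+LY libraries, and the sum of the ligands overlaps between all groups. Each sum is dominated by its most abundant genes.

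The other genes of the pathway, 84 by a list of ligand handling, other receptors and antagonists, the β-catenin core, planar polarity and named targets, moved at shares nearer to those of all genes. Of 80 tested, 2 were called up and 1 down in 4OHT versus cAMP (3.75%), 5 up and 6 down in PD+LY versus 4OHT (13.8%), and 4 up and 7 down in PD+LY versus cAMP (13.8%). The shares of all genes were 2.67%, 7.26% and 9.24%. The 26 genes of the β-catenin core, which includes the destruction complex and β-catenin itself, gave no call but for Apc2, a relative of Apc, which rose under the inhibitors from 16 and 23 counts in 4OHT to 60 and 112 (1.86 ± 0.42, adjusted p = 0.00874).

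After 4OHT the antagonist Cer1, a product of early endoderm, went from 104 and 308 counts in cAMP to 0 and 2, a count ratio of 0.00532 (exact interval 0.000642 to 0.0193, adjusted p = 0.000217), and it had 0 counts in both PD+LY libraries. Among the 18 named targets tested, 2 were called up after 4OHT and 0 down (11.1%, against 2.67% of all genes). Tbx3, a T-box factor, rose from 58.5 and 57.6 CPM to 132 and 128 CPM (1.16 ± 0.10, adjusted p = 6.39e-05). Cdx1, a factor of the intestine and tailbud, rose from 1 and 6 counts to 18 and 21 (2.59 ± 0.72, adjusted p = 0.047).

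In PD+LY versus 4OHT the genes called up were Shisa2, which retains Frizzled inside the cell (1.97 ± 0.15, adjusted p = 9.42e-06), Apc2, Tnfrsf19, a receptor of the TNF family (1.26 ± 0.13), Ror1, a receptor for Wnt5a (1.24 ± 0.22), and Prickle2 of the planar polarity branch (1.17 ± 0.17). Among those called down, Porcn, the enzyme that attaches the lipid to all Wnt proteins (chromosome X), had 27.5 and 29.3 CPM in cAMP, 17.7 and 22.4 CPM in 4OHT, and 7.84 and 7.78 CPM in PD+LY. It stepped down without overlap, by 1.36 in PD+LY versus 4OHT (SE 0.16, adjusted p = 0.00019) and by 1.86 in PD+LY versus cAMP (SE 0.16, adjusted p = 1.14e-05). The named targets Ccnd1, the cyclin of early G1 (-1.66 ± 0.14, adjusted p = 1.58e-05), Cd44 (-1.60 ± 0.17), Ascl2 (-1.33 ± 0.36) and Cdx1 (-2.92 ± 0.74) were lower as well. Among the 18 named targets tested, 5 were called down and 1 up, where 4.90% and 2.35% of all genes were. The target called up was Tnfrsf19.

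In PD+LY versus cAMP the genes called up were Draxin (1.28 ± 0.31), Shisa2 (1.27 ± 0.14), Apc2 (1.22 ± 0.40) and Tnfrsf19 (1.05 ± 0.13), and of the 7 called down the 5 with the largest changes were Cer1, T (-3.18 ± 0.95), Porcn, Ccnd1 (-1.83 ± 0.14) and Ascl2 (-1.56 ± 0.36). T, the primitive streak factor, had 14 and 21 counts in cAMP, 0 and 8 in 4OHT, and 2 in each PD+LY library. T and Cer1 stand in the mesendoderm marker list too, of which 2 of 9 tested genes were called down after 4OHT and 4 in PD+LY versus cAMP. In addition 1 mesendoderm gene was called up in the latter. In the same order 1 and 8 of the 15 mesenchymal genes were called up and 0 and 1 down, and of the 15 epithelial genes 3 and 8 were called down and 1 and 0 up, where 2.67% and 9.24% of all genes were called. Among 13 endothelial genes tested 5 and 6 were called down, and among 10 neural progenitor genes 2 and 3, with 0 up in either list. For 12 thyroid follicular genes tested the calls were 2 and 0 down and 0 and 2 up. The 10 pluripotency genes gave 0 and 2 calls up and 0 down. In PD+LY versus 4OHT, where 7.26% of all genes were called, 7 of the 12 thyroid follicular genes were called up and 0 down. Of the 15 mesenchymal genes 5 were called up and 2 down there, and of the 15 epithelial genes 0 up and 6 down. The endothelial list gave 0 up and 2 down, and the mesendoderm list 1 and 1. For the pluripotency list the calls were 1 up and 0 down, and for the neural progenitor list 0 either way. The part of these cells in the values of Wnt3, Wnt8a, Lef1 and the other members was not tested.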

How the data were processed

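Total RNA of 6 organoid samples was sequenced from stranded mRNA libraries. The deposited values are raw counts per gene symbol, which the authors obtained by trimming reads, aligning them to mm10 with HISAT2 and counting with HTSeq without regard to strand; versions of these tools are not given in the sources used here. Every column of values belonged to a labelled sample, so the number of unmapped columns was 0.

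Differences were computed with edgeR 4.0.16 under R 4.3.3. The filter was filterByExpr (minimum count 10, minimum total 15), which kept 15256 and removed 9983, and library sizes were scaled by TMM. One quasi-likelihood model with 3 groups was fitted to all 6 libraries, and the Benjamini-Hochberg adjustment took in every tested gene. Calls needed a change of 2-fold and an adjusted p under 0.05, as in the study. The procedure was tested on simulated data in which only well-counted genes were changed, so that test does not cover members with few counts. The labels do not say that the 2 libraries of a group came from separate cultures, so p-values measure only the spread between these libraries, which may be technical.

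Members, role lists, pathway lists and marker lists were chosen with earlier results of these data known. Every member past both thresholds is given in full, those with an adjusted p under 0.05 alone are named, as is the most abundant member of each role, and of the other pathway genes at most 5 per comparison and direction. Positions and exon lengths came from GENCODE M21 (GRCm38) and promoters from RefSeq. Alternatives were DESeq2 1.42.0, no filter, a filter of 10 counts in each library, RLE size factors, the replicate number as a block, only the 2 groups compared, no fold threshold, and leaving out each library.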

Additional observations from a re-analysis of the deposited data

How the results depend on the processing

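Of the 28 member calls, 13 were kept in every alternative that gave a value: 1 of 5 in 4OHT against cAMP, 2 of 9 in PD+LY against 4OHT and 10 of 14 in PD+LY against cAMP; no direction reversed. With at least 10 counts in every library, 2 members were called down in 4OHT against cAMP. Wnt3, Wnt8a and Rspo3 had fewer counts than that in 4OHT, so this filter removed them untested. DESeq2 called 1 member down in PD+LY against 4OHT; it gave no adjusted p to Lgr5, Wnt3a and Wnt8a in this comparison and in 4OHT against cAMP. Without the fold threshold, 1 was called up and 9 down in 4OHT against cAMP, 8 down in PD+LY against 4OHT, and 6 up in PD+LY against cAMP. With 1 library left out, the calls in 4OHT against cAMP stayed at 0 up and ranged from 1 to 6 down, in PD+LY against 4OHT from 3 to 7 up and 0 to 2 down, and in PD+LY against cAMP from 1 to 3 up and 9 to 12 down; a group with 1 library left is assumed to vary like the others. With the replicate number as a block, 0 and 7, 6 and 3, and 4 and 11 members were called up and down in the 3 comparisons. The labels do not say that a number marks a shared culture or run, so the numbers were not taken to pair the libraries. The correlation of same-numbered deviations was 0.158 between cAMP and 4OHT, 0.421 between cAMP and PD+LY, and 0.101 between 4OHT and PD+LY. Whether same-numbered libraries share a source was not tested. Depth limits the ligands most: 5 of the 7 members that could not be tested are ligands. A gene at 3 counts or fewer cannot be told from 0.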
